A study of Homo sapiens with 9 samples.

Results

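The ligands of the epidermal growth factor (EGF) family and their ERBB receptors were examined in H295R, an established line grown from a human carcinoma of the adrenal cortex that still produces steroids. The 9 genes were chosen by symbol as members of the family: the ligands HBEGF, AREG, EREG, TGFA and BTC, and the receptors EGFR, ERBB2, ERBB3 and ERBB4. Of these, 8 had at least 1 probe set that the array's annotation gives to them alone, 32 probe sets in all, out of 19775 genes and 41091 such probe sets in the series. AREG was not analysed here. The cells had received 100 nM angiotensin II, a peptide hormone that drives aldosterone synthesis, 100 nM torcetrapib (labelled CP-529414, which inhibits cholesteryl ester transfer protein, CETP) or dimethyl sulfoxide (DMSO, the vehicle, with no dose given). All were sampled at 3 h, with 3 arrays in each group. The study asked whether CETP inhibitors switch on the renin-angiotensin-aldosterone system in cells of adrenal origin. Nothing in the labels tells whether a group's arrays stem from separate cultures. P-values therefore measure the spread between these arrays, which may be technical, and results in 1 tumour line cover that line alone.

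EGF-family ligands are made as precursors anchored in the cell membrane and are set free by metalloproteases, mainly ADAM17 and ADAM10. A freed ligand makes ERBB receptors pair up and signal through the kinases RAS, RAF and ERK and through PI3K and AKT. EGFR binds all 5 of the ligands named here, HB-EGF, epiregulin and betacellulin also bind ERBB4, ERBB2 has no known ligand of its own, and ERBB3 has little kinase activity and works through its partner. In several cell types angiotensin II is known to act on EGFR indirectly, through release of HB-EGF from the cell surface, a step that mRNA levels do not measure.

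Values are log2 expression levels from RMA (robust multi-array average), a method that merges the probes of a probe set into a single level, and each gene is given by its brightest probe set. A difference of 1 on this scale is a doubling. Markers of adrenocortical cells were clearly present: of 8 measured, 7 lay at or above the median gene (6.73), up to 12.0 for FDX1. Among markers of other cells, the leukocyte gene PTPRC was at 3.50, the endothelial gene KDR at 3.75 and the catecholamine enzyme TH at 3.91, while the epithelial gene EPCAM was at 9.90, the granule protein CHGB at 8.53 and COL1A1 at 7.72. None of the measured markers of chromaffin cells (5), fibroblasts (5), endothelium (4), immune cells (3) or epithelium (4) was called with either treatment against DMSO. Of all genes 6.12% were called with angiotensin II and 1.16% with torcetrapib. Of the 8 adrenocortical markers 3 were called with angiotensin II and 1 with torcetrapib. Between the treatments 4 adrenocortical markers and 1 fibroblast marker were called, beside 11.3% of all genes. A sign of RNA quality differed between the groups. This index is the mean, for ACTB and GAPDH, of the 5′ control signal less the 3′ control signal on the log2 scale. It was -0.62 ± 0.02 with angiotensin II, -0.24 ± 0.03 with torcetrapib and -0.50 ± 0.22 with DMSO (SD, n = 3 each). All 3 torcetrapib arrays lay above the other 6, DMSO replicate 2 being level with the lowest of them, with an exact two-sided permutation p = 0.1 against either group, the smallest that 3 against 3 arrays can give.

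HBEGF, which encodes heparin-binding EGF-like growth factor, was the single measured member called higher with angiotensin II against DMSO. Its level was 9.41, 9.15 and 9.36 on the angiotensin II arrays, 6.86, 6.79 and 6.91 on the torcetrapib arrays and 6.78, 6.59 and 6.79 on the DMSO arrays. The angiotensin II arrays stood far above the other 6, with no overlap. Against DMSO 17.6% of all genes did not overlap, in either direction, and HBEGF was the 1 member of 8. The means were 9.31 ± 0.14 with angiotensin II, 6.85 ± 0.06 with torcetrapib and 6.72 ± 0.11 with DMSO (SD, n = 3 each). Against DMSO the rise with angiotensin II was 6.0-fold, with a 95% interval from 5.27-fold to 6.82-fold (limma adjusted p = 8.63e-12). It was called under each of the 20 alternative settings, with log2 changes between 1.28 and 2.66. The lowest of these is the mean over all 4 HBEGF probe sets.

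Those 4 probe sets did not move alike. The probe set 203821_at carries the values above. A second, 38037_at, read 8.98, 8.56 and 9.16 with angiotensin II, 6.35, 6.50 and 6.70 with torcetrapib and 6.62, 6.47 and 6.57 with DMSO. It gave a log2 change of 2.35 ± 0.14 (SE) with angiotensin II, close to that of the first. The other two, 244857_at and 222076_at, were dimmer and changed by 0.13 ± 0.11 and 0.05 ± 0.10, short of the test. On 244857_at the angiotensin II arrays read between 5.56 and 5.65, inside the DMSO range of 5.36 to 5.68.

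Torcetrapib left HBEGF without a call. Its log2 change against DMSO was 0.13 ± 0.09 (SE), with a 95% interval from -0.05 to 0.32, which is 0.964-fold to 1.25-fold (limma adjusted p = 0.569). By the brightest probe set the torcetrapib arrays lay just above the DMSO arrays without overlap, as 16.5% of all genes did on one side or the other, with 6.792 as the lowest torcetrapib value and 6.791 as the highest DMSO value. By 38037_at the same groups overlapped and the change was -0.03 ± 0.14. Set directly against angiotensin II at the same dose and time, HBEGF was 5.47-fold lower with torcetrapib (log2 difference -2.45 ± 0.09, limma adjusted p = 4.32e-11). That difference was called under each of the 20 alternatives too, from -2.54 to -1.28, and was -2.38 ± 0.14 by 38037_at. The angiotensin II arrays enter both this comparison and the one against DMSO, so the values are not independent of each other.

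**Figure D1:**
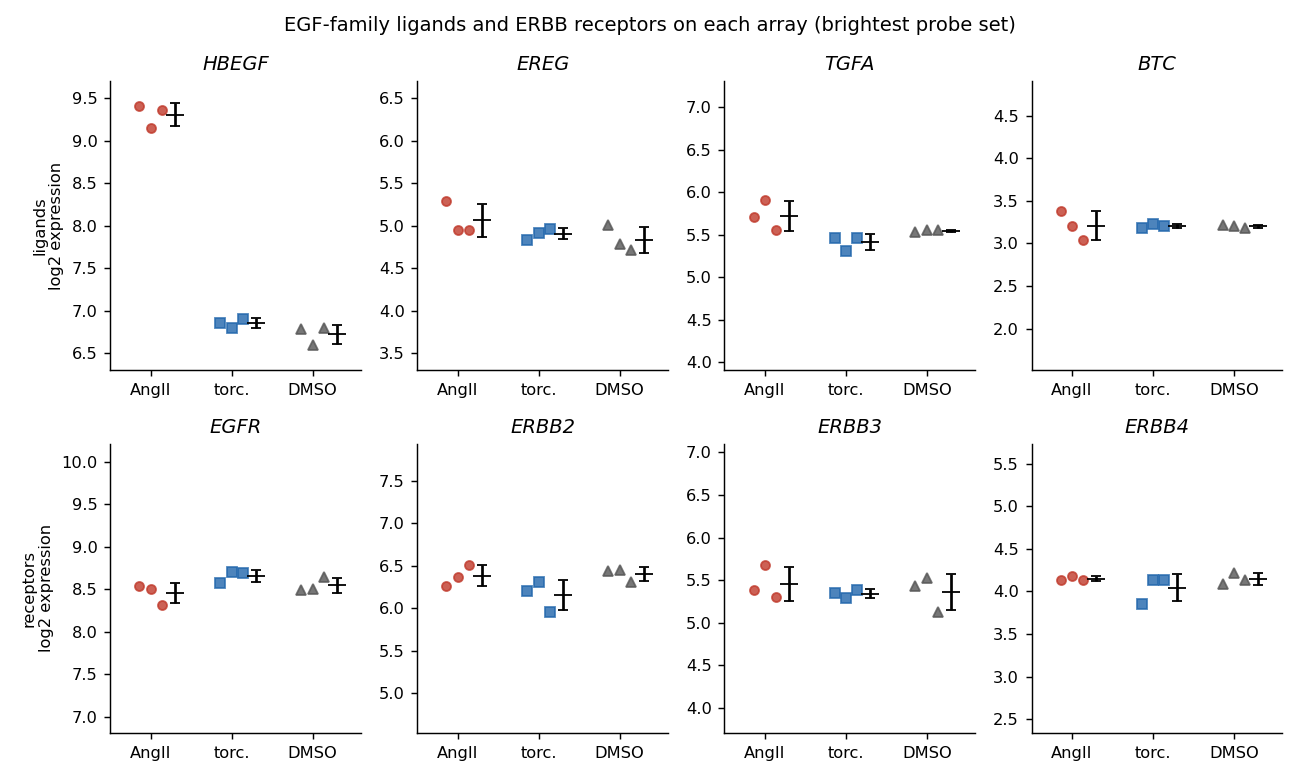
Log2 expression of the brightest probe set of each member on every array, with ligands in the upper row and receptors in the lower. Points are arrays, black bars the mean ± SD of 3 arrays, and every panel spans 3.4 log2 units, so distances can be compared between panels but levels cannot. HBEGF sits between 9.15 and 9.41 with angiotensin II and between 6.59 and 6.91 in the other 2 groups, while in the other panels the groups lie close together.

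The sequences before the starts of HBEGF and of 2 other genes are shown to let the reader see which well-known motifs these windows hold: EREG, a ligand gene without a call, and ERRFI1, an inhibitor of EGF receptors that rose with HBEGF. Each is the 250 bases before the start of the gene in RefSeq, build GRCh38.p14, read 5′ to 3′ on the strand of the gene, at chr5:140346604-140346853 (minus strand) for HBEGF, chr4:74364895-74365144 (plus strand) for EREG and chr1:8026310-8026559 (minus strand) for ERRFI1. Capitals mark motif matches.
HBEGF: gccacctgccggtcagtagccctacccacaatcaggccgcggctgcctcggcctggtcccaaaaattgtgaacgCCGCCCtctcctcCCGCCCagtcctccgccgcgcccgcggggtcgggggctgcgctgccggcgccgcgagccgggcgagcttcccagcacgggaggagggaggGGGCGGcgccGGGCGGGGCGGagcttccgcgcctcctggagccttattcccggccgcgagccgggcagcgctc
EREG: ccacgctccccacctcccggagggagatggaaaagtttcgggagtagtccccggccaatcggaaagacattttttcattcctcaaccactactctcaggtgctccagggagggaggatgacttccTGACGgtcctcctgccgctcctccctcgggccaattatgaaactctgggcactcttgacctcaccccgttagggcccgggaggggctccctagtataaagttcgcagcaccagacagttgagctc
ERRFI1: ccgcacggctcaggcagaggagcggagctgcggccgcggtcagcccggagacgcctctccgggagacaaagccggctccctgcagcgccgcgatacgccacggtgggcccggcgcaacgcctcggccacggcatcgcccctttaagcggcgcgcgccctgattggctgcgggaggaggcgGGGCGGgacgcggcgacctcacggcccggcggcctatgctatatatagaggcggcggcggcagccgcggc
The motifs searched, on both strands, were the cAMP response element TGACGTCA and its core TGACG, the AP-1 motif TGANTCA, the CArG box of serum response factor, the SP1 motif GGGCGG, the NR4A motif AAAGGTCA and the EGR motif GCGTGGGCG. The HBEGF window held 5 SP1 matches and none of the others. Of these, 2 lie on the opposite strand, 176 to 171 and 163 to 158 bases before the start, and 3 on the strand of the gene, at 73 to 68, 63 to 58 and 58 to 53, the last pair sharing 1 base. ERRFI1 held 1 SP1 match and EREG 1 cAMP core, 125 to 121 bases before its start. Over 35116 RefSeq windows of the same length, 42.6% held the SP1 motif, 21.2% the core, 6.57% the AP-1 motif, 1.65% the full cAMP response element, 1.16% the CArG box, 1.05% the NR4A motif and 0.720% the EGR motif. A match is a run of letters and no measured site, and no match says only that those letters are not in the window. RefSeq windows were matched for 8 of the 9 genes, all but ERBB3.

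The other 3 measured ligands did not pass the test in any comparison. EREG encodes epiregulin, often induced beside HB-EGF in other cells. It read 5.29, 4.95 and 4.95 with angiotensin II, 4.84, 4.92 and 4.96 with torcetrapib and 5.01, 4.78 and 4.71 with DMSO. The groups overlapped, and angiotensin II replicate 1 was the highest array. The log2 change with angiotensin II was 0.23 with a 95% interval from -0.01 to 0.47 (limma adjusted p = 0.328). Array weights were the only alternative to give EREG a call, at 0.35 (limma adjusted p = 0.0215, range over the alternatives 0.0215 to 0.742), and they put angiotensin II replicate 1 at a weight of 6.15 against 0.448 and 0.480 for replicates 2 and 3. With torcetrapib the EREG change was 0.07, from -0.17 to 0.31. Between torcetrapib and angiotensin II the EREG difference was -0.16 (95% interval -0.40 to 0.08, limma adjusted p = 0.412), and array weights gave it a call too (-0.36, limma adjusted p = 0.00499).

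TGFA, the gene of transforming growth factor alpha, read 5.70, 5.91 and 5.55 with angiotensin II, 5.46, 5.31 and 5.47 with torcetrapib and 5.53, 5.55 and 5.55 with DMSO. Torcetrapib arrays were the lowest 3 of the 9 and did not overlap with either other group, as for 16.5% of genes against DMSO and 28.6% against angiotensin II. The changes against DMSO were 0.18 (95% interval -0.04 to 0.40) with angiotensin II and -0.13 (-0.35 to 0.09) with torcetrapib. Between the treatments TGFA was lower with torcetrapib by a log2 difference of -0.31 ± 0.10 (SE), short of the threshold (limma adjusted p = 0.0690, range over the alternatives 0.00561 to 0.751). It passed without angiotensin II replicate 3 (-0.39, limma adjusted p = 0.0256) and with array weights (-0.29, limma adjusted p = 0.00561). The 2 other TGFA probe sets had differences of 0.13 and -0.08.

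BTC, the gene of betacellulin, was among the dimmest genes of the array. It read 3.38, 3.21 and 3.04 with angiotensin II, 3.18, 3.23 and 3.21 with torcetrapib and 3.22, 3.21 and 3.18 with DMSO, under the lowest-quarter limit of 4.87. At such a level a change can go unseen, and the intervals around its changes, -0.17 to 0.18 with angiotensin II and -0.17 to 0.18 with torcetrapib, cover this probe set's signal and not a measured transcript level.

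Of the 4 receptor genes none was called against DMSO or between the treatments by its brightest probe set. EGFR, the receptor of all these ligands, read 8.54, 8.51 and 8.32 with angiotensin II, 8.57, 8.70 and 8.69 with torcetrapib and 8.50, 8.50 and 8.64 with DMSO by probe set 224999_at. Both treated groups overlapped with DMSO. The log2 changes were -0.09 (95% interval -0.25 to 0.07) with angiotensin II and 0.11 (-0.05 to 0.27) with torcetrapib. Torcetrapib arrays stood above angiotensin II arrays without overlap, as 28.6% of all genes did on one side or the other. The difference was 0.20 ± 0.07 (SE) and missed the threshold (limma adjusted p = 0.105, range over the alternatives 0.0875 to 0.757).

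ERBB2, the partner of the other receptors, read 6.27, 6.37 and 6.51 with angiotensin II, 6.20, 6.31 and 5.96 with torcetrapib and 6.44, 6.45 and 6.31 with DMSO. The lowest array was torcetrapib replicate 3. Its log2 change with torcetrapib was -0.25, with an unadjusted 95% interval from -0.47 to -0.02, and did not pass once adjusted over all genes (limma adjusted p = 0.332). With angiotensin II it was -0.02, from -0.25 to 0.21.

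ERBB3, which signals through partners, ranged from 5.30 to 5.68 with angiotensin II, from 5.29 to 5.39 with torcetrapib and from 5.13 to 5.53 with DMSO. The groups overlapped throughout, and its changes were 0.09 (95% interval -0.17 to 0.35) with angiotensin II and -0.02 (-0.28 to 0.24) with torcetrapib. The other ERBB3 probe sets were dimmer, averaging 4.84, 4.52, 4.31 and 4.20, all under the lowest-quarter limit of 4.87. ERBB4, a receptor for neuregulins as well as for HB-EGF, was dim. It ranged from 4.14 to 4.18 with angiotensin II, from 3.86 to 4.14 with torcetrapib and from 4.09 to 4.22 with DMSO. Its changes were 0.01 (-0.19 to 0.20) with angiotensin II and -0.10 (-0.30 to 0.09) with torcetrapib, so that neither receptor moved beyond its spread.

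**Figure D2:**
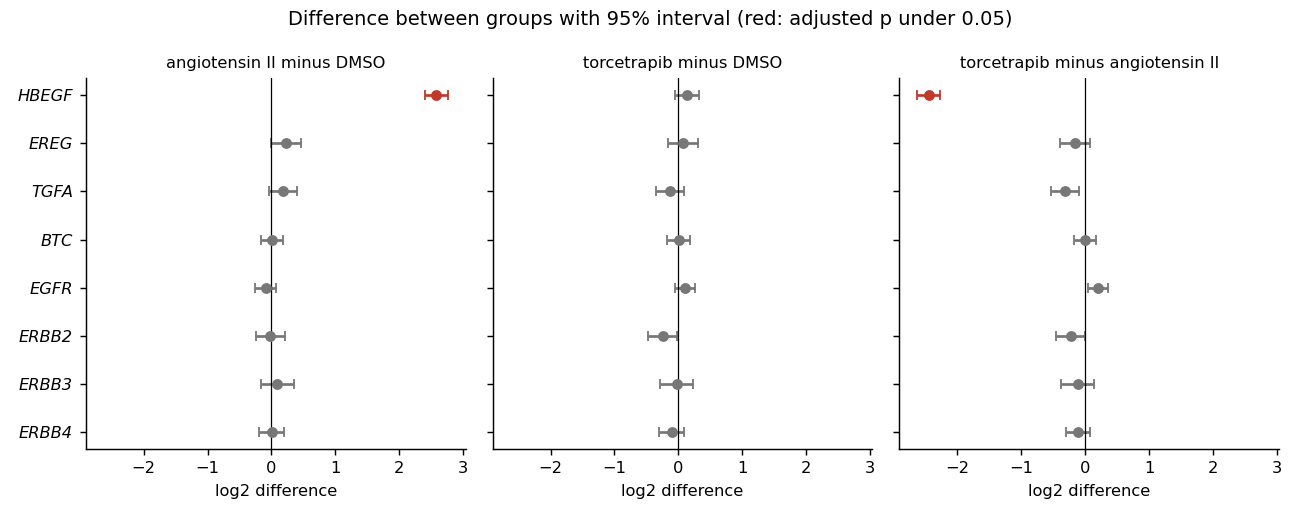
Log2 difference between group means for each member (brightest probe set) in the 3 comparisons, with the unadjusted 95% interval from limma. Red marks an adjusted p under 0.05: HBEGF is the one red point in the comparison of angiotensin II with DMSO, at 2.58, and in that of torcetrapib with angiotensin II, at -2.45, and no point is red for torcetrapib with DMSO.

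Over the family, 1 of 8 members was called higher and 0 lower with angiotensin II against DMSO, where 6.12% of all 19775 genes were called in either direction, 3.36% higher and 2.76% lower. With torcetrapib against DMSO 0 of 8 were called, against a background of 1.16%, with 0.592% higher and 0.566% lower (limma, with ERBB2 alone at an unadjusted p under 0.05, as 13.3% of genes were). Between torcetrapib and angiotensin II 0 were higher and 1 lower, where 11.3% of genes were called, 4.61% higher and 6.68% lower. At an unadjusted p under 0.05 between the treatments, 24.8% of all genes passed, as did HBEGF, TGFA and EGFR among the members. With so few members, neither count can be told from its background. The median change of the 8 was 0.05 with angiotensin II and -0.01 with torcetrapib, beside 0.01 and -0.03 over all genes.

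The 9 EGFR probe sets differed in a way that the brightest one did not show. Probe set 210984_x_at read 6.88, 6.96 and 6.99 with torcetrapib, 6.40, 6.36 and 6.27 with angiotensin II and 6.26, 6.65 and 6.27 with DMSO. The torcetrapib arrays were the highest 3, and DMSO replicate 2 came next. This probe set was called higher with torcetrapib against DMSO, by 0.55 ± 0.11 (SE, limma adjusted p = 0.0357 over all probe sets), where 0.849% of 41091 probe sets were called higher. The call ended in 8 of 10 alternatives for single probe sets, all added after the data were seen. It was lost without DMSO replicate 1 or 3 (limma adjusted p = 0.149 and 0.146), angiotensin II replicate 1 or 3 (0.0683 and 0.0526), or torcetrapib replicate 1, 2 or 3 (0.122, 0.151 and 0.150). Without DMSO replicate 2 it was 0.68 (limma adjusted p = 0.00128), and 2 further EGFR probe sets were called higher with torcetrapib against DMSO, 211607_x_at (0.56, limma adjusted p = 0.0100) and 201983_s_at (0.40, limma adjusted p = 0.0175). Calls over all genes rose too when that array was left out. By the brightest probe sets, 917 genes were then called, 287 of them higher, against 229 and 117 with all arrays.

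Against angiotensin II, 3 EGFR probe sets were called higher with torcetrapib, where 7.22% of all probe sets were. They were 211607_x_at, by 0.65 ± 0.12 (SE), 210984_x_at, by 0.60 ± 0.11, and 201983_s_at, by 0.48 ± 0.09, with limma adjusted p between 0.00404 and 0.00468. The last read 8.55, 8.52 and 8.45 with torcetrapib, against 7.98, 8.07 and 8.02 with angiotensin II, and between 7.95 and 8.26 with DMSO. None of these 3 was called with angiotensin II against DMSO. Their types, _x_at and _s_at, mark probe sets that can bind more than 1 transcript. Of the 9 EGFR probe sets, 5 had a positive difference between torcetrapib and angiotensin II. The rest were lower with torcetrapib and none was called: 1565483_at (-0.35), 1565484_x_at (-0.22), 211551_at (-0.20) and 211550_at (-0.12).

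The index of RNA quality moved with these probe sets. DMSO replicate 2, at an index of -0.28 beside torcetrapib replicate 1 at -0.28, had the highest DMSO value on all 3: 6.65 on 210984_x_at, 6.26 on 211607_x_at and 8.26 on 201983_s_at, with DMSO replicate 3 at 8.25 on the last. With the index in the model the differences between torcetrapib and angiotensin II were 0.28 for 210984_x_at, 0.33 for 211607_x_at and 0.24 for 201983_s_at, and none was called (limma adjusted p = 0.735, 0.721 and 0.680). Their SEs were 0.16, 0.19 and 0.13 in this model, against 0.11, 0.12 and 0.09 without the index. Over all genes, by the brightest probe sets, 280 were called between the treatments with the index and 2232 without it. The change of 210984_x_at with torcetrapib against DMSO was then 0.32 (limma adjusted p = 0.730). Since the index and the torcetrapib group go together, this model cannot part them, and the part of RNA quality in these differences was not tested. HBEGF by its brightest probe set changed by 2.54 with angiotensin II and by 0.24 with torcetrapib in the same model.

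**Figure D3:**
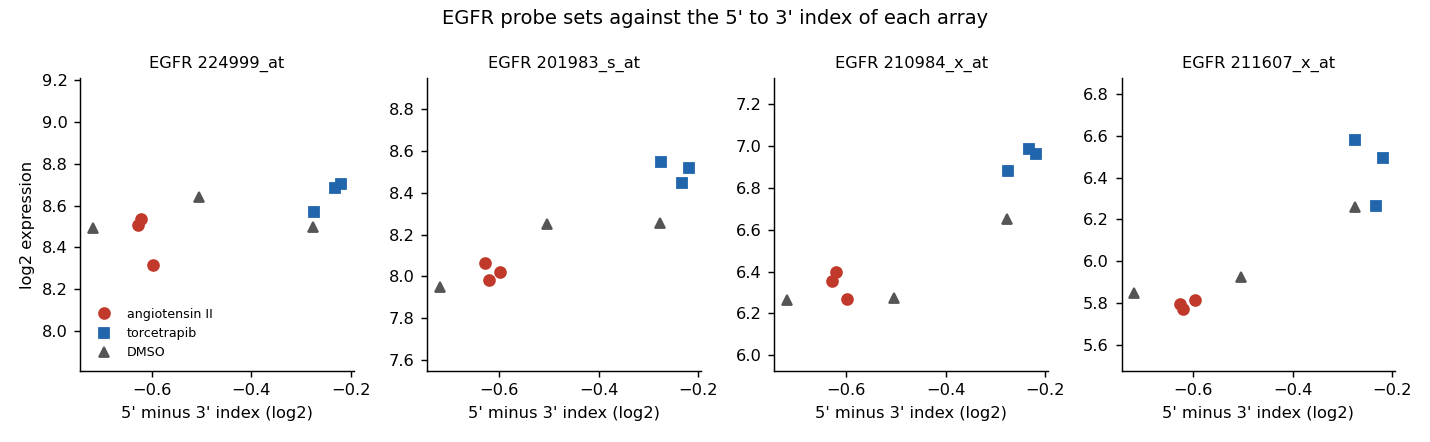
Log2 expression of 4 EGFR probe sets on each array (vertical axis, 1.4 log2 units in every panel) against the 5′ minus 3′ index of that array (horizontal axis, log2). Torcetrapib arrays lie at the right with an index between -0.28 and -0.22, together with DMSO replicate 2, whose value on 210984_x_at, 6.65, falls between the torcetrapib arrays and the other arrays.

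Across all 32 probe sets of the family, 2 were called higher with angiotensin II against DMSO, both of HBEGF, and 0 lower, with 2.17% and 1.46% of all probe sets called higher and lower. With torcetrapib 1 was called higher and 0 lower, beside 0.849% and 0.263% of all probe sets. Between the treatments 3 were higher, all of EGFR, and 2 lower, both of HBEGF, beside 7.22% and 4.37%. No probe set of EREG, TGFA, BTC, ERBB2, ERBB3 or ERBB4 was called in any comparison. The closest were TGFA 211258_s_at and ERBB2 210930_s_at between the treatments (limma adjusted p = 0.0800 and 0.0843).

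**Figure D4:**
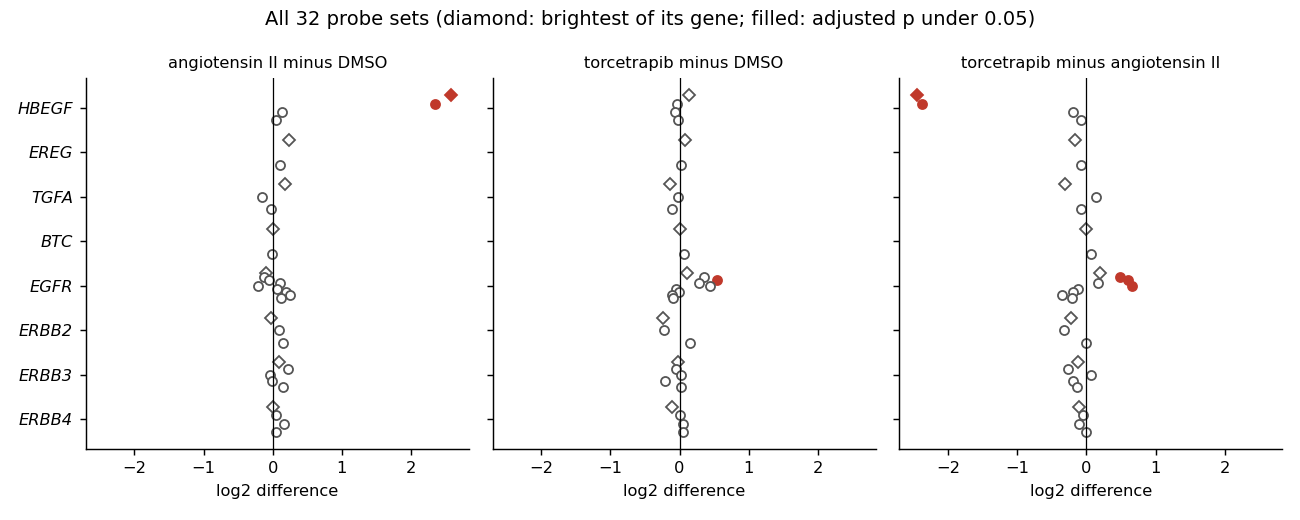
Log2 difference of each of the 32 probe sets of the family in the 3 comparisons. Diamonds are the brightest probe set of a gene, circles the others, and filled red symbols have an adjusted p under 0.05 over all 41091 probe sets. Red symbols belong to 2 HBEGF probe sets, between 2.35 and 2.58 with angiotensin II, and to EGFR probe sets, of which 1 is red with torcetrapib against DMSO and 3 between the treatments.

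Genes whose levels ran most like HBEGF over the 9 arrays were sought among 142 that were not dim and whose group means spanned at least 1 log2 unit. The 5 closest by Pearson correlation, given as a description over arrays that fall into the same groups, were the kinase gene PIM3 (r = 0.997), the cytokine LIF (0.997), the receptor phosphatase PTPRH (0.996), the transcriptional regulator SERTAD1 (0.996) and the stress-response gene GADD45B (0.996). With angiotensin II they changed by 1.08, 2.39, 1.57, 2.15 and 1.91 on the log2 scale, beside 2.58 for HBEGF. With torcetrapib they changed by 0.02, -0.06, 0.16, 0.25 and 0.05.

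Genes around the family were taken from 7 lists, with 78 of their 90 genes measured and 12 not analysed here. With angiotensin II against DMSO 12 rose and 5 fell, beside 3.36% and 2.76% of all genes. With torcetrapib against DMSO 4 rose and 2 fell, beside 0.592% and 0.566%. With torcetrapib against angiotensin II 5 were higher and 15 lower, beside 4.61% and 6.68%. Their median change was 0.04 with angiotensin II and -0.03 with torcetrapib, beside 0.01 and -0.03 over all genes.

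Among the other EGF-family ligands 0 of 5 measured rose and 1 fell with angiotensin II, beside 3.36% and 2.76% of all genes. NRG4, the gene of neuregulin 4, a ligand of ERBB4, read 5.22, 4.71 and 5.35 with angiotensin II, 6.13, 5.71 and 5.80 with torcetrapib and 5.58, 5.95 and 5.65 with DMSO. The angiotensin II arrays were the lowest 3. Without overlap in either direction were 17.6% of all genes against DMSO and 28.6% between the treatments. Its change of -0.64 ± 0.16 (SE, limma adjusted p = 0.0231) lost its call in 7 of 20 alternatives, among them those lacking angiotensin II replicate 2 or DMSO replicate 2 or 3 (limma adjusted p = 0.102, 0.0942 and 0.0568, range over all alternatives 0.0132 to 0.102). Against angiotensin II, NRG4 was higher with torcetrapib by 0.79 ± 0.16, a call lost with the index in the model (0.50, limma adjusted p = 0.646). EGF itself was dim, at a mean of 4.08, and its change of 0.12 with angiotensin II did not pass.

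The main proteases that free the ligands were not called. ADAM17 read 9.51, 9.41 and 9.55 with angiotensin II, 9.38, 9.32 and 9.35 with torcetrapib and 9.55, 9.42 and 9.42 with DMSO, a change of 0.03 with angiotensin II and -0.11 with torcetrapib, neither past the test. ADAM10 changed by -0.11 and -0.03. Of 11 genes in this list 1 rose and 0 fell with angiotensin II, beside 3.36% and 2.76% of all genes. It was TIMP3, an inhibitor of ADAM17, which rose by 0.17 ± 0.04 (SE, limma adjusted p = 0.0247). The TIMP3 call ended in 9 of 19 alternatives, without DMSO replicate 2 and angiotensin II replicates 1 and 3 among them, with adjusted p up to 0.611.

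Among the measured feedback inhibitors of the receptors, ERRFI1 had the largest change with angiotensin II. The median change of that list was 0.01, beside 0.01 over all genes. ERRFI1, whose protein binds EGFR and blocks its kinase, read 11.27, 11.20 and 11.27 with angiotensin II, 9.80, 9.81 and 9.68 with torcetrapib and 9.43, 9.55 and 9.57 with DMSO. The 3 groups did not overlap, where between 16.5% and 28.6% of all genes did not in each single comparison. It rose by 1.73 ± 0.05 (SE) with angiotensin II (limma adjusted p = 3.36e-12), a call kept under each of the 20 alternatives. With torcetrapib it rose by 0.25 ± 0.05 (limma adjusted p = 0.0351), a call that ended in 12 of 20 alternatives. These included the removal of DMSO replicate 1 or 3, angiotensin II replicate 1 or 3, or torcetrapib replicate 1 or 2, and adjusted p ran from 0.00204 to 0.697.

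Of the 14 measured feedback genes 3 rose and 2 fell with angiotensin II, beside 3.36% and 2.76% of all genes. ANXA1, an EGFR substrate, rose by 0.46 ± 0.08 (SE) and the phosphatase PTPN1 by 0.34 ± 0.09. LRIG3, of a family of ERBB regulators, fell by 0.57, and SOCS4, which targets EGFR for degradation, fell by 0.17. The ANXA1 call held under all 20 alternatives, that of PTPN1 ended in 12, of SOCS4 in 9 and of LRIG3 in 4. For PTPN1 these included the removal of DMSO replicate 2, any angiotensin II array or torcetrapib replicate 1 or 2 (limma adjusted p up to 0.549), and for SOCS4 that of DMSO replicate 1 or 3, angiotensin II replicate 1 or 2 or torcetrapib replicate 1. For LRIG3 these included the removal of DMSO replicate 1 or 3 or angiotensin II replicate 2 (limma adjusted p = 0.0704, 0.0895 and 0.0725). SOCS4 turned in sign by the mean of its probe sets, at 0.02. The ubiquitin ligase gene CBL, which marks active EGFR for degradation, changed by -0.08 with angiotensin II and -0.07 with torcetrapib, neither past the test.

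Of 15 measured adaptors and kinases of the ERK cascade 1 rose with angiotensin II and 0 fell, where 6.12% of all genes were called: the scaffold KSR1, by 0.37 ± 0.09 (SE, limma adjusted p = 0.0163). Its call ended without DMSO replicate 2 or angiotensin II replicate 3 (limma adjusted p = 0.0574 and 0.0662), with the index and by the mean of its probe sets. Of 7 genes in the PI3K and AKT arm none was called with angiotensin II, where 6.12% of all genes were. With torcetrapib 1 rose, beside 0.592% of all genes: AKT2, by 0.32 ± 0.07 (limma adjusted p = 0.0252). By the probe sets that are neither _x_at nor _s_at its change was -0.28 (limma adjusted p = 0.190, range 0.00612 to 0.353), and the call ended without DMSO replicate 3 or any 1 of the torcetrapib arrays.

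Of 20 measured output genes of ERK signalling 7 rose and 1 fell with angiotensin II, beside 3.36% and 2.76% of all genes. FOS, an early transcription factor gene, rose by 2.82 ± 0.07 (SE), IER3, an ERK-induced survival gene, by 2.03 ± 0.11, and the ERK feedback inhibitor SPRY2 by 1.92 ± 0.07. The other 4 that rose were EGR1, FOSL1, EGR3 and PHLDA1, by 0.57 to 1.21. Of these PHLDA1 was not called when its probe sets were averaged (0.24, limma adjusted p = 0.0835). DUSP6, a phosphatase that inactivates ERK and is itself an ERK target, went the other way. It read 9.41, 9.41 and 9.40 with angiotensin II, 10.53, 10.46 and 10.57 with torcetrapib and 11.27, 11.03 and 11.17 with DMSO, and it fell by 1.75 with angiotensin II. No 2 groups overlapped, where between 16.5% and 28.6% of all genes did not in each single comparison. With torcetrapib SPRY2 rose by 0.60 ± 0.07 and FOS by 1.04 ± 0.07, while DUSP6 fell by 0.63 and DUSP5, another ERK phosphatase, fell by 0.25. The calls of SPRY2, FOS and DUSP6 held under all 20 alternatives, while that of DUSP5 ended in 7, among them the removal of DMSO replicate 3 or any torcetrapib array (limma adjusted p up to 0.154).

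Of 6 genes that link the angiotensin receptor to EGFR, 0 rose and 1 fell with angiotensin II, beside 3.36% and 2.76% of all genes. With torcetrapib 0 were called, beside 1.16% of all genes (limma). AGTR1, the receptor of angiotensin II, read 11.69, 11.68 and 11.69 with angiotensin II, 11.94, 11.93 and 11.93 with torcetrapib and 11.92, 12.12 and 11.98 with DMSO, a change of -0.32 ± 0.04 (SE) with angiotensin II. The kinases SRC and PTK2B, which relay signals from the receptor in other cells, changed by -0.22 and -0.08, neither past the test.

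Set directly against angiotensin II, torcetrapib gave lower levels for 15 and higher levels for 5 of the 78 measured pathway genes. Of the 20 ERK output genes 1 was higher and 10 lower, beside 4.61% and 6.68% of all genes. IER3 differed by -1.94 ± 0.11 (SE), FOS by -1.78 ± 0.07 and SPRY2 by -1.32 ± 0.07, while DUSP6 was higher by 1.12 ± 0.06. These 4 were called under every alternative run. ERRFI1 differed by -1.48 ± 0.05, also under every alternative. Among the lower ERK output genes, the call of SPRY4 (-0.26) ended in 10 of 19 alternatives and that of ETV5 (-0.18) in 9 of 20. The call of DUSP5 (-0.20) ended in 5 of 20 and that of PHLDA1 (-0.59) in 1 of 20.

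Smaller differences between the treatments were less stable. KSR1 was lower with torcetrapib (-0.58 ± 0.09, SE) and AGTR1 higher (0.24 ± 0.04), and both calls ended with the RNA quality index in the model (KSR1 -0.40, limma adjusted p = 0.346, and AGTR1 0.08, limma adjusted p = 0.749). The KSR1 call ended by the mean of its probe sets as well (-0.17, limma adjusted p = 0.106). With the index, 9 pathway genes were called between the treatments, against 20 without it. Over all 19775 genes, 280 were called with the index and 2232 without it, so the loss was not particular to these genes. AKT1, a kinase gene, was lower (-0.30 ± 0.07), a call that ended without angiotensin II replicate 1 or torcetrapib replicate 3, and AKT2 was higher (0.35 ± 0.07), with the sign turned by the probe sets that are neither _x_at nor _s_at. PTPN1 (-0.31 ± 0.09) and TIMP3 (-0.14 ± 0.04) were lower and LRIG2 (0.29 ± 0.09) higher. The PTPN1 call ended without any 1 array of either treatment, that of LRIG2 without angiotensin II replicate 1 or 2 or any torcetrapib array, and that of TIMP3 without DMSO replicate 3, angiotensin II replicate 1 or 3 or any torcetrapib array. Their adjusted p reached 0.990, 0.924 and 0.986 over the alternatives, and by the mean of its probe sets TIMP3 was called in the opposite direction, higher with torcetrapib (0.27, limma adjusted p = 0.0330).

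**Figure D5:**
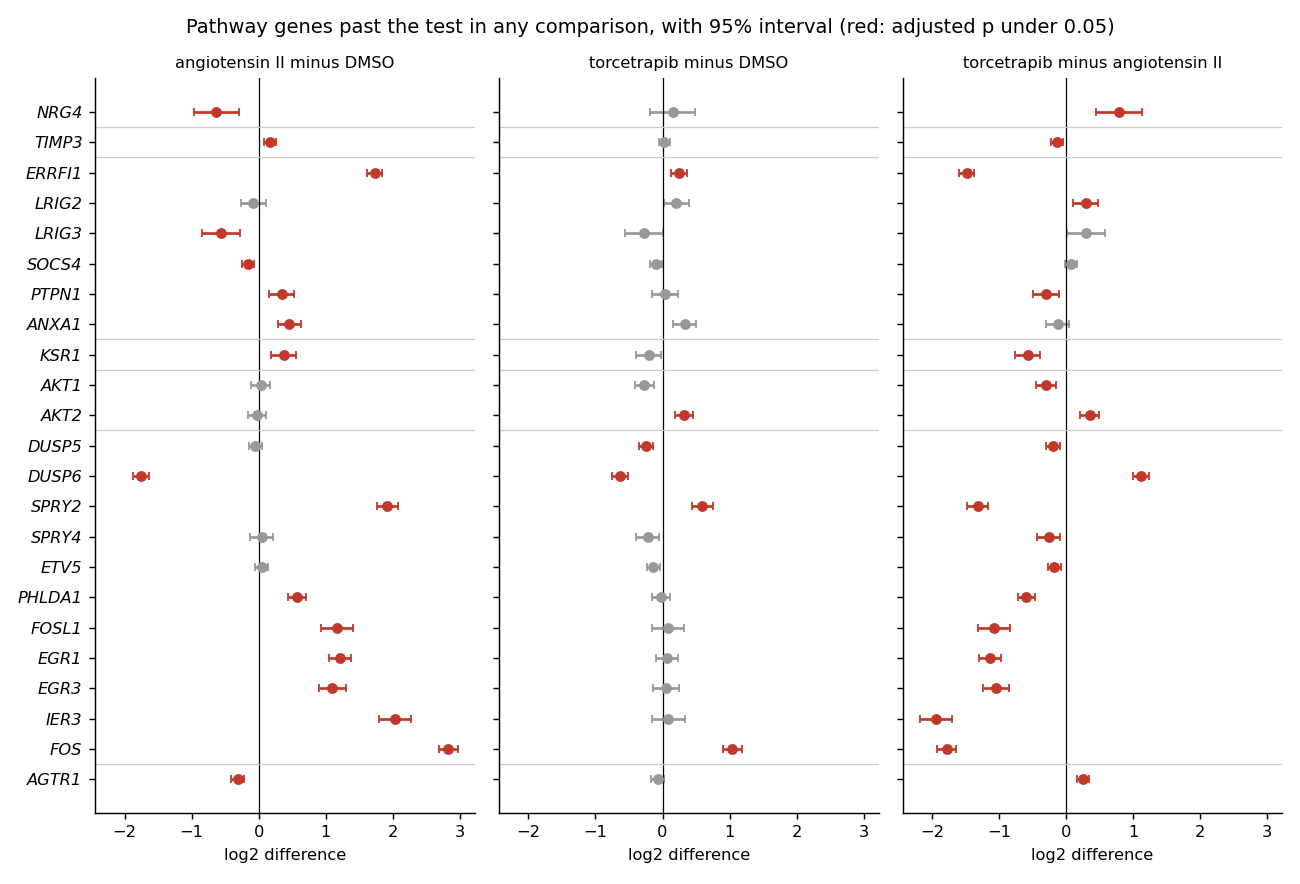
Log2 difference of the 23 pathway genes that passed the test in at least 1 comparison, with unadjusted 95% intervals. Grey lines part the lists, which run from other ligands at the top to the link with the angiotensin receptor at the bottom, and red marks an adjusted p under 0.05. ERRFI1, SPRY2, IER3 and FOS lie far to the right with angiotensin II, between 1.73 and 2.82, DUSP6 lies to the left at -1.75, and the same genes lie nearer 0 with torcetrapib.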

How the data were processed

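The authors deposited log2 expression values per probe set from RMA, as the submitters' processing notes state. Its software and chip description: not given in the sources used here. A commercial kit was used for RNA extraction and the array maker's standard protocol for labelling, per the labels' protocols. The 9 arrays hold 54675 probe sets each; 62 controls were left out, and of the rest 41091 had a single gene symbol and were used, 1801 had several and 11721 had none. Symbols were updated by gene ID. No further normalisation was applied, and background correction and slide could not be varied.

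Each of 19775 genes was given by its brightest probe set (mean over 9 arrays). One limma 3.58.1 model (R 4.3.3) with 3 group means, 6 residual degrees of freedom and an intensity trend was fitted to all genes, and once to all probe sets. Two-sided p-values were Benjamini-Hochberg adjusted over the whole table and called under 0.05. The 95% intervals carry no adjustment. The fit was tested on simulated data. Of 50 genes changed at each fold in each comparison, it found 12 to 14 at 1.2-fold, 38 to 47 at 1.5-fold and 49 to 50 at 2-fold. Changes near 1.2-fold were thus mostly missed in the simulation. Sequences are from RefSeq.

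The members, lists and tests were chosen with earlier results of these data known. The genes named are all members, the pathway genes past the threshold (at most the 4 largest of a list), those of counts of 5 or fewer, and some that did not pass, the last chosen after their values were seen. The alternatives were another variance moderation, dim genes left out, other scalings, other choices of probe set, array weights, 2 groups alone, the 5′ to 3′ index as covariate and each array left out.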

Additional observations from a re-analysis of the deposited data

How the results depend on the processing

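No paired analysis was possible because the groups share no replicate numbers in the labels. The changes of the 8 members were recomputed 471 times: none lost its call, 4 gained one (EREG and TGFA, given above) and 29 turned in sign while uncalled. The count of members called was 2 with angiotensin II and 3 between the treatments with array weights, against 1 in each by the main model. With 1 array left out it was 1 to 1 with angiotensin II, 0 to 0 with torcetrapib and 1 to 2 between the treatments, the 2 without angiotensin II replicate 3. Of all genes, 1210 were called with angiotensin II, 2712 with array weights and 956 to 1171 with 1 array left out. With torcetrapib 229 were called, 117 of them higher. This moved to 50 without the intensity trend, 120 with arrays centred (79 higher), 521 when quantile normalised again (180 higher), 108 by the mean of probe sets, 136 without _x_at and _s_at probe sets, 1272 with array weights, 145 with the 2 groups alone and 76 with the index, and ran from 83 to 917 with 1 array left out, the highest without DMSO replicate 2. Between the treatments 2232 were called, 6216 with array weights, 280 with the index and 1351 to 2653 with 1 array left out. The cause was not tested. Pathway genes called numbered 17 with angiotensin II (12 to 25 over the alternatives), 6 with torcetrapib (3 to 11) and 20 between the treatments (9 to 41), and between the treatments the mean of probe sets gave 26, of which 15 were higher. Turned in sign were SOCS4 with angiotensin II (0.0248, mean of probe sets), AKT2 with torcetrapib (-0.279) and between the treatments (-0.256) and ETV5 between them (0.291), these 3 without _x_at and _s_at probe sets, and TIMP3 between the treatments (0.270, mean of probe sets), the last also called in the turned direction. Dim members, BTC and ERBB4, lie near background, where changes are compressed. The brightest EREG probe set lies little above the lowest-quarter limit, and the other EREG and ERBB3 probe sets lie under it, so changes there may be compressed too. With 3 arrays a group, all precision is limited.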
